A study of Mus musculus with 6 samples.

Results

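Matrix metalloproteases (Mmp), ADAM and ADAMTS proteases, their non-catalytic ADAMTSL relatives, the procollagen C-proteinase group and the inhibitors of these enzymes were followed in cultured primary hepatocytes of the mouse, the cells that carry out most metabolic work of the liver. The genes were taken by symbol (Mmp, Adam, Adamts or Adamtsl with a number, Timp with a digit, and Reck, Bmp1, Tll1 and Pcolce). Of 22609 gene rows, 79 matched, and the 34 with 10 or more counts in at least 3 of the 6 libraries are described as members. The other 45 included 16 with no count in any library. The donors were male C57BL/6 mice, wild type and 4 months old, and the study gave their hepatocytes either phosphate-buffered saline (PBS, 3 samples) or 20 µg/mL of LRG1, a secreted glycoprotein, for 16 h (3 samples), and sequenced their poly(A) RNA. Its title names LRG1 as an adipokine, a factor from fat tissue, that acts on liver fat and insulin response. Both groups are isolated cells in culture. Whether the 3 samples of a group are different animals or repeats of 1 preparation is not in the labels, so the p-values cover the variation among these samples, technical variation possibly included.

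The proteases of these families are zinc enzymes made as inactive precursors. Matrix metalloproteases cut collagens, basement membrane and other matrix proteins. ADAM proteases sit in the cell membrane and release the outer parts of growth factors, cytokines, adhesion molecules and receptors. ADAMTS enzymes are secreted and cut proteoglycans, procollagens and other matrix proteins, while Bmp1 removes the carboxyl-terminal propeptide of fibrillar procollagens. Tissue inhibitors of metalloproteases (Timp) block the active site, and Reck is a membrane-anchored inhibitor. In liver these genes are best known from stellate cells and macrophages during fibrosis.

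Gene counts summed to 18625748 to 23036332 per library. Levels are CPM, counts brought to the same library size and corrected for composition, as mean ± SD with n = 3 per group. Changes are log2 fold changes of LRG1 against PBS with their standard error (SE), and the adjusted p is that of edgeR's quasi-likelihood test over 12301 tested genes with a threshold of 0.05. Of the 6 hepatocyte markers, 0 were higher, 3 were lower and 3 did not pass. Among all tested genes 51.4% passed, and 25.8% were lower. Cps1, the first enzyme of the urea cycle, was 4.32-fold lower, Apoa1 1.54-fold and Hnf4a 1.23-fold, while albumin (Alb, 19235 ± 676 and 18555 ± 375 CPM), Ttr and Asgr1 did not pass. The summed level of 8 stellate cell and fibroblast markers was 18.9 to 23.7 CPM under PBS and 17.1 to 20.4 CPM under LRG1. The summed level of 7 endothelial markers was 39.9 to 42.4 CPM under PBS and 33.7 to 37.8 CPM under LRG1. Of the 6 tested, Stab2 and Lyve1 were 2.04-fold and 2.24-fold lower, 0 were higher and 4 did not pass. Of the 8 Kupffer cell and macrophage markers in the files, the sum was 219 to 266 CPM under PBS and 182 to 208 CPM under LRG1, most of it Cd68. In the biliary list, Krt19 was lower, Sox9 higher and Spp1 (4437 ± 103 and 4442 ± 176 CPM) not past the threshold. Its other markers, Epcam and Krt7, were too low to be tested. Epcam had 6, 9 and 7 counts under PBS and 17, 22 and 9 under LRG1. Krt7 had 4, 3 and 2 counts under PBS and 7, 11 and 7 under LRG1. Bulk RNA cannot tell fewer cells of a type from less RNA per cell.

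With LRG1, Mmp, ADAM, ADAMTS and Timp genes each included members that were higher and members that were lower, while the ADAMTSL members Adamtsl4 and Adamtsl5 were lower. Of the 34 members, 12 were higher and 12 lower past the threshold, and 10 did not pass. Over all tested genes 51.4% passed, 25.5% higher and 25.8% lower. At least 2-fold differences were found for 10 members, against 9.5% of all tested genes. They were 5 that were higher (Mmp9, Adam12, Adamts6, Bmp1 and Timp1) and 5 that were lower (Adam11, Adamtsl1, Mmp15, Mmp19 and Adamts14); 4.07% and 5.43% of all tested genes did so in these directions. Adamtsl1 met the count rule through its PBS libraries alone, which fixed its direction. The libraries of the 2 groups did not overlap for 25 members, against 57.6% of all tested genes. The median log2 fold change of the members was 0.16, beside 0.0093 over all tested genes, and the median absolute value was 0.51, beside 0.20. Membership and the set of tested genes both ask for counts, so the shares of both describe expressed genes. The member values were not tested as a property of the families. Without Adamtsl1, 33 members gave 12 higher and 11 lower, 5 and 4 of them at least 2-fold, 24 without overlap and a median of 0.18.

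**Figure D1:**
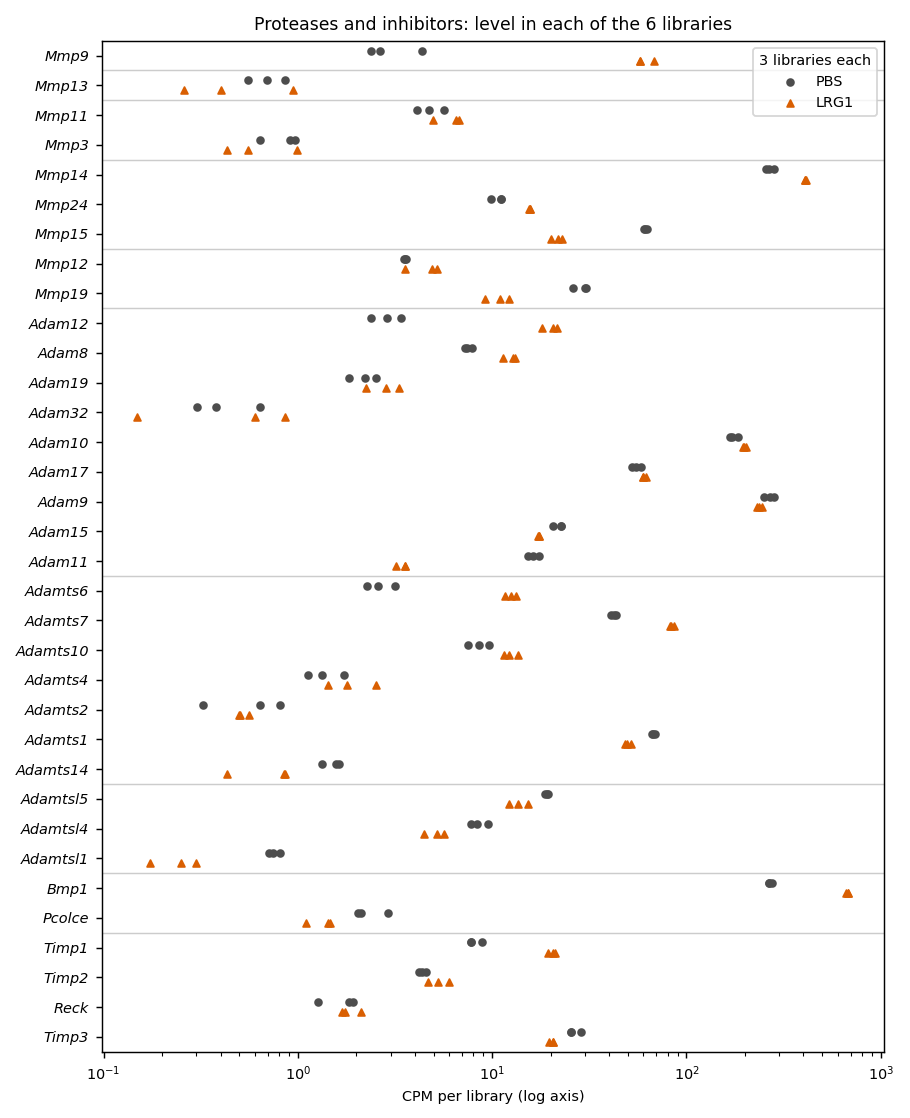
CPM on a log axis for each of the 34 members in the 3 PBS (circles) and 3 LRG1 (triangles) libraries, with lines between functional groups. Mmp9 has 2.38 to 4.37 CPM in the PBS libraries and 57.7 to 68.3 CPM in the LRG1 libraries, while Mmp3, Mmp13 and Adam32 overlap and stay below 1 CPM.

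**Figure D2:**
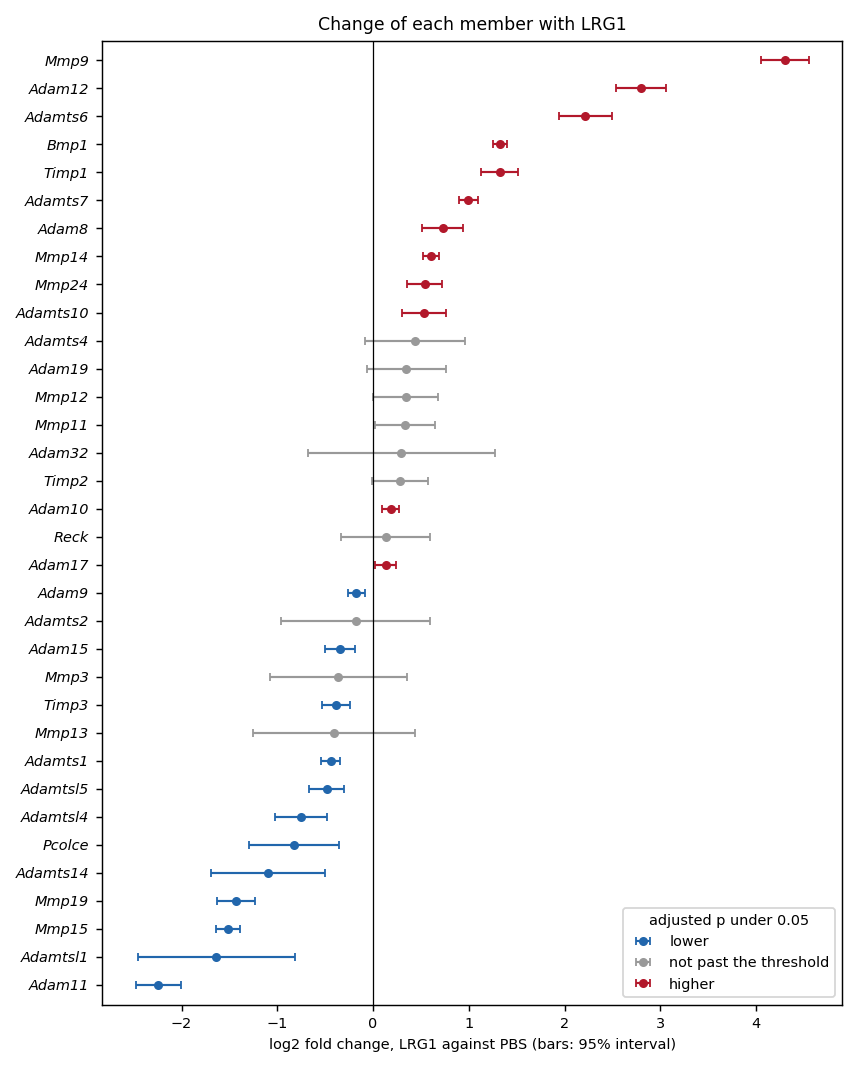
Log2 fold change of each member with its 95% interval, coloured by the edgeR call. The values run from -2.24 for Adam11 to 4.30 for Mmp9, with 12 members higher, 12 lower and 10 not past the threshold.

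Mmp9, gelatinase B, which cuts denatured collagen and type IV collagen, had the largest rise of the 34 members. Its level was 2.38, 4.37 and 2.65 CPM in PBS replicates 1 to 3 and 57.7, 68.3 and 57.8 CPM in LRG1 replicates 1 to 3. Every LRG1 library was above every PBS library. The means were 3.13 ± 1.08 and 61.3 ± 6.10 CPM, a 19.7-fold difference (log2 fold change 4.30, SE 0.12, adjusted p = 1.05e-18). The PBS libraries held 47, 81 and 50 counts of Mmp9, so the low group was measured on few reads. Mmp9 and Adam8 are abundant in neutrophils, whose markers were close to absent. The 6 neutrophil markers in the files summed to 0.0506 to 0.106 CPM under PBS and 0.151 to 0.216 CPM under LRG1, and Mpo, Elane and S100a9 had no count in any library. Of the 7 tested macrophage markers, Marco was higher (1.25 ± 0.223 CPM with PBS, 2.02 ± 0.456 CPM with LRG1), Cd68 was lower and 5 did not pass. Among all tested genes 51.4% passed. The part of neutrophils and macrophages in the Mmp9 difference was not tested.

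The other gelatinase gene, Mmp2, was not a member. It had 9, 8 and 10 counts under PBS and 12, 8 and 4 under LRG1, just outside the count rule. The collagenase gene Mmp8 had 1 count in all libraries together.

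Membrane-type metalloproteases split. Mmp14 (MT1-MMP), a membrane-bound collagenase that also activates the Mmp2 precursor, was already abundant under PBS. It had 267, 258 and 282 CPM under PBS and 412, 409 and 407 CPM under LRG1. The groups did not overlap, and Mmp14 was 1.52-fold higher (log2 fold change 0.61, SE 0.039, adjusted p = 4.99e-12). Mmp24 (MT5-MMP), a protease described mainly in neurons, went from 10.7 ± 0.711 to 15.6 ± 0.136 CPM (log2 fold change 0.54). Exons of a gene on the opposite strand cover 13.6% of its exon length, so part of its count is uncertain. Mmp15 (MT2-MMP), a transmembrane relative of Mmp14, went the other way. It had 60.2, 61.5 and 62.8 CPM under PBS and 23.0, 20.1 and 21.8 CPM under LRG1. It was 2.85-fold lower (log2 fold change -1.51, SE 0.061, adjusted p = 7.82e-16), with no overlap between groups.

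Mmp19, a secreted metalloprotease that acts on basement membrane proteins, fell with Mmp15. Its levels were 30.2, 26.0 and 30.5 CPM under PBS and 11.0, 9.15 and 12.2 CPM under LRG1, 2.69-fold lower (log2 fold change -1.43, SE 0.095, adjusted p = 7.03e-12). The groups were well apart. Exons of Tmem198b on the opposite strand cover 22.3% of the Mmp19 exon length, so part of its count is uncertain.

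The remaining secreted metalloproteases were scarce and did not pass the threshold. Mmp11 (stromelysin-3), an enzyme activated inside the cell by furin, had 4.81 ± 0.770 and 6.05 ± 0.968 CPM (adjusted p = 0.0686). It passed without PBS replicate 3 (adjusted p = 0.0291), without LRG1 replicate 3 (adjusted p = 0.0241) and with no filter on low counts (adjusted p = 0.0423), and over the alternatives its adjusted p ran from 0.0241 to 0.261. Mmp12, macrophage elastase, had 3.55 ± 0.0451 and 4.54 ± 0.876 CPM (adjusted p = 0.0853), and it passed without LRG1 replicate 2 (adjusted p = 0.0156, with a range of 0.0156 to 0.315 over the alternatives). Mmp3 (stromelysin-1) and Mmp13 (collagenase-3), inducible enzymes of inflamed and remodelling tissue, had 0.839 ± 0.178 and 0.703 ± 0.153 CPM under PBS and 0.661 ± 0.297 and 0.536 ± 0.362 CPM under LRG1. Their log2 fold changes had 95% intervals of -1.08 to 0.35 (Mmp3) and -1.26 to 0.43 (Mmp13). Mmp13 had 11, 16 and 13 counts under PBS and 19, 6 and 8 under LRG1. Without LRG1 replicate 1, its highest library, Mmp13 passed as lower (log2 fold change -1.09, adjusted p = 0.0457, with a range of 0.0457 to 0.935 over the alternatives).

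Promoters were looked at because Mmp3, Mmp12 and Mmp13 belong to a gene cluster known for AP-1 sites close to the transcription start. RefSeq windows (GRCm38.p6, 250 bases before to 50 after a start) matched 22 of the 34 members in 25 windows. The 12 not matched were Mmp9, Mmp19, Adam9, Adam11, Adam12, Adam32, Adamts4, Adamts6, Adamts7, Adamts10, Adamtsl1 and Bmp1. The AP-1 motif TGANTCA, searched on both strands, was found in 0 of 6 members that were higher, 0 of 8 that were lower and 4 of 8 that did not pass, namely Mmp3, Mmp12, Mmp13 and Adam19. Of all genes with a RefSeq window, 8.97% held it. Mmp3, Mmp12 and Mmp13 were the reason for the search, so their matches were foreseen. The split by call was therefore no test of AP-1. Among the called members, Mmp9, Bmp1, Adam12, Adamts6, Adamts7, Adam11 and Mmp19 had no window to search. Each of the 4 matches is also the strict form TGAGTCA or its reverse complement, held by 5.95% of all genes. The match began at -46 in Mmp3, -44 in the second listed start of Mmp12 and -35 in Mmp13, counted from the start. The SMAD element core CAGAC, a letter string short enough to occur in 53.2% of all genes, was found in 8 of the 22. A match is a string of letters, not a shown binding site. The 250 bases before the start are printed 5′ to 3′ for the 3 cluster genes, with AP-1 matches in capitals, and for the higher members Timp1 and Mmp14, where no match was found.
Mmp3, chr9:7445572-7445821, plus strand: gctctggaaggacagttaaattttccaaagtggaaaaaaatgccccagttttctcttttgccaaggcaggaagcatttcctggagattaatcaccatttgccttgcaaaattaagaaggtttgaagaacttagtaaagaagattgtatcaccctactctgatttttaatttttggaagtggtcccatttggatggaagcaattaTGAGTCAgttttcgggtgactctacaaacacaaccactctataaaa
Mmp12, chr9:7347124-7347373, plus strand: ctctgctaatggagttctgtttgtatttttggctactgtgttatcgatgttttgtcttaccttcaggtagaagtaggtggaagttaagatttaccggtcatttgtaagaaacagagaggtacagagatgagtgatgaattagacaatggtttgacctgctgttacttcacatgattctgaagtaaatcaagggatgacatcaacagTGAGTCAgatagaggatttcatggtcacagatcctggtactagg
Mmp13, chr9:7272264-7272513, plus strand: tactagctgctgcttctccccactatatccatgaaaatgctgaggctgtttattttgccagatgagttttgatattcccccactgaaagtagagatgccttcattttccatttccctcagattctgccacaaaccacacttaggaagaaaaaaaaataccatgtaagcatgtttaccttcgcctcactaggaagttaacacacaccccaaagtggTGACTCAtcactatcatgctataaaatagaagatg
Timp1, chrX:20869916-20870165, plus strand: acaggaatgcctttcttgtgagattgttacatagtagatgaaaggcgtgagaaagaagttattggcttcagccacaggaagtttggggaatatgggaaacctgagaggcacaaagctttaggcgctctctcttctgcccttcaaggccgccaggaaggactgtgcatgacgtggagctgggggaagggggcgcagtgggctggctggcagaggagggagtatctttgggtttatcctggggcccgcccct
Mmp14, chr14:54431348-54431597, plus strand: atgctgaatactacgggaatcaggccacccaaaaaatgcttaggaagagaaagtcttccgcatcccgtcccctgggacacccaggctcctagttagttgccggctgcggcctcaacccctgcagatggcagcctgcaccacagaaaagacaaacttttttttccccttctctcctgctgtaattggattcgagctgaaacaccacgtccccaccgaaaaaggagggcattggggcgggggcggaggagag
The 3 cluster promoters carry their capitals within the last 50 bases before the start. By CPM per kb of exon under PBS their genes ranked 24 (Mmp3), 23 (Mmp12) and 31 (Mmp13) of 34 members. Members with a window but no match ranked both high (Mmp14 at 2, Timp1 at 7) and low (Adamts14 at 29, Adamts2 at 33). A link between match and level was not tested.

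Of 9 ADAM members, 4 rose, 3 fell and 2 did not pass the threshold, where 25.5% of all tested genes were higher and 25.8% lower. Adam12 (meltrin alpha), which releases growth factors and cuts insulin-like growth factor binding proteins, rose most of them. It had 2.88, 3.40 and 2.39 CPM under PBS and 20.5, 21.7 and 18.0 CPM under LRG1, 6.94-fold higher (log2 fold change 2.80, SE 0.13, adjusted p = 5.76e-15). No LRG1 library came near the PBS values. Of the 6 tested stellate cell and fibroblast markers, 0 were higher, 1 (Reln) was lower and 5 did not pass. Among all tested genes 51.4% passed. The retinol esterification gene Lrat, too low to be tested, had 20 counts under PBS and 1 under LRG1. Of the markers that did not pass, Pdgfrb had every LRG1 library above every PBS library (log2 fold change 0.31). Dcn (-0.029), Col3a1 (-0.17), Des (-0.39) and Pdgfra (-0.43) overlapped. The part of stellate cells and fibroblasts in the Adam12 difference was not tested. Adam8, a protease of leukocytes, went from 7.53 ± 0.303 to 12.5 ± 0.937 CPM (log2 fold change 0.73, adjusted p = 2.63e-06).

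The main sheddases changed little. Adam10, which cuts Notch receptors and cadherins, had 172, 183 and 168 CPM under PBS and 195, 197 and 202 CPM under LRG1 (adjusted p = 0.000633, log2 fold change 0.18, SE 0.041). Adam17 (TACE), which releases tumour necrosis factor and ligands of the EGF receptor, had 55.3 ± 3.19 and 60.4 ± 1.48 CPM. Its log2 fold change of 0.13 (SE 0.053, adjusted p = 0.0434) lost its call in 7 of 15 alternatives. These were the DESeq2 test (adjusted p = 0.110), the fit with the replicate number as a block (adjusted p = 0.0573), and the fits without PBS replicate 1 (0.212), PBS replicate 3 (0.0937), LRG1 replicate 1 (0.0605), LRG1 replicate 2 (0.156) or LRG1 replicate 3 (0.0646), over a range of 0.0142 to 0.212. Adam9, a widely expressed sheddase, was lower by a small amount, at 268 ± 16.2 and 237 ± 6.45 CPM (log2 fold change -0.17, adjusted p = 0.00165). Adam15 went from 22.0 ± 1.23 to 17.3 ± 0.184 CPM (log2 fold change -0.34), with 20.6% of its exon length covered by an antisense transcript.

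Adam11, a member that is known as a neuronal adhesion protein without protease activity, had the lowest log2 fold change of the 34. It had 17.5, 15.3 and 16.2 CPM under PBS and 3.19, 3.54 and 3.58 CPM under LRG1, 4.74-fold lower (log2 fold change -2.24, SE 0.11, adjusted p = 6.03e-14). The groups did not overlap. Adam19 (meltrin beta), known for cutting neuregulins, had 2.20 ± 0.350 and 2.81 ± 0.544 CPM and did not pass (adjusted p = 0.152). Adam32 barely met the count rule, with 6, 7 and 12 counts under PBS and 3, 14 and 17 under LRG1 (adjusted p = 0.631). Adam1a, whose symbol carries a letter, fell outside the rule and had 11 to 19 counts per library.

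Of 7 ADAMTS members, 3 rose, 2 fell and 2 did not pass the threshold, against 51.4% of all tested genes called in either direction. Adamts6, a relative of Adamts10, had 2.28, 3.18 and 2.60 CPM under PBS and 11.6, 13.3 and 12.5 CPM under LRG1. It was 4.65-fold higher (log2 fold change 2.22, SE 0.13, adjusted p = 1.53e-12), and each LRG1 library was above each PBS library. Adamts7, which cuts cartilage oligomeric matrix protein, had 41.1, 42.4 and 43.2 CPM under PBS and 86.6, 82.3 and 83.4 CPM under LRG1, 1.99-fold higher (log2 fold change 0.99, SE 0.049, adjusted p = 3.75e-14). Adamts10, which associates with fibrillin microfibrils, went from 8.58 ± 1.09 to 12.5 ± 1.04 CPM (log2 fold change 0.53).

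Of the proteoglycan-cutting members, Adamts1 had 67.6, 66.2 and 68.7 CPM under PBS and 49.4, 48.0 and 51.5 CPM under LRG1 (adjusted p = 6.97e-08, log2 fold change -0.44, SE 0.050). Adamts4 (aggrecanase-1) had 1.39 ± 0.300 and 1.91 ± 0.557 CPM and did not pass (adjusted p = 0.156). The procollagen N-proteinase gene Adamts14 was 2.14-fold lower, with means of 1.50 ± 0.155 and 0.712 ± 0.242 CPM (adjusted p = 0.00262, log2 fold change -1.10, SE 0.29). Its counts were 32, 29 and 25 under PBS and 17, 10 and 17 under LRG1. Without LRG1 replicate 2, its lowest library, the difference was less than 2-fold (log2 fold change -0.82, adjusted p = 0.0310). Adamts2, the main procollagen N-proteinase, had 0.590 ± 0.247 and 0.521 ± 0.0351 CPM (adjusted p = 0.712). It had 6 to 16 counts per library, and its log2 fold change had a wide 95% interval, -0.96 to 0.60.

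Of the 3 ADAMTS-like members, the direction of Adamtsl4 and Adamtsl5 was not set by the count rule, and both were lower. ADAMTS-like proteins are secreted, lack the protease domain and bind matrix, Adamtsl4 in fibrillin microfibrils. Adamtsl5 went from 19.1 ± 0.440 to 13.7 ± 1.55 CPM (log2 fold change -0.48) and Adamtsl4 from 8.56 ± 0.874 to 5.10 ± 0.619 CPM (log2 fold change -0.75). Adamtsl1 had 14, 15 and 14 counts under PBS and 6, 4 and 5 under LRG1 (log2 fold change -1.64, adjusted p = 0.00137). It met the count rule through the PBS libraries alone, so a lower level under LRG1 was built into its membership. Outside the rule, Adamtsl2 had 0 counts in each PBS library and 4, 5 and 3 counts under LRG1, and Mmp23 had 4, 4 and 1 counts under PBS and 17, 11 and 5 under LRG1.

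Bmp1, the procollagen C-proteinase, which also activates lysyl oxidase, had the smallest p of the 34 members. Its levels were 275, 267 and 266 CPM under PBS and 679, 666 and 680 CPM under LRG1, 2.51-fold higher (log2 fold change 1.33, SE 0.037, adjusted p = 8.19e-19). The replicates of each group lay close together and the groups far apart. Pcolce, which speeds the cut made by Bmp1, was lower, with means of 2.36 ± 0.482 and 1.33 ± 0.201 CPM (adjusted p = 0.00369, log2 fold change -0.83, SE 0.23). Its paralog Pcolce2, listed among the other secreted inhibitors and enhancers and not a member, was 4.36-fold higher, from 5.94 ± 0.603 to 25.9 ± 1.03 CPM (log2 fold change 2.13). Tll1, a relative of Bmp1, had 2 counts under PBS and 7 under LRG1.

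The inhibitors did not share a direction. Timp1, a secreted inhibitor of most matrix metalloproteases, had 7.79, 8.89 and 7.75 CPM under PBS and 21.2, 20.5 and 19.3 CPM under LRG1, and its groups did not overlap (log2 fold change 1.32, SE 0.092, adjusted p = 1.76e-11). Timp3, which is bound to matrix and also inhibits Adam17, was lower, with means of 26.5 ± 1.76 and 20.2 ± 0.611 CPM (adjusted p = 9.06e-05, log2 fold change -0.39, SE 0.072). Exons of Syn3 on the opposite strand cover 21.3% of the Timp3 exon length. Timp2, which takes part in the activation of the Mmp2 precursor by Mmp14, had 4.37 ± 0.181 and 5.31 ± 0.659 CPM. Its 3 LRG1 libraries lay above the 3 PBS libraries, but it did not pass (log2 fold change 0.28, 95% interval -0.012 to 0.57, adjusted p = 0.103). Reck had 1.68 ± 0.352 and 1.85 ± 0.234 CPM (adjusted p = 0.652), and Timp4 had no count in any library.

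To compare levels between genes, CPM was divided by exon length in kb (GENCODE M21, an annotation other than the one behind the counts). On this scale the highest PBS levels were 65.1 for Adam9, 45.1 for Mmp14, 35.5 for Adam10 and 30.4 for Bmp1. Under LRG1 the order was Bmp1 (76.1), Mmp14 (68.7), Adam9 (57.6) and Adam10 (40.3). Mmp9 moved from rank 21 of 34 at 0.885 to rank 6 at 17.3 CPM per kb, and Timp1 from rank 7 at 9.17 to rank 5 at 22.9 CPM per kb. Differences between genes depend on the lengths used and were not tested.

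**Figure D3:**
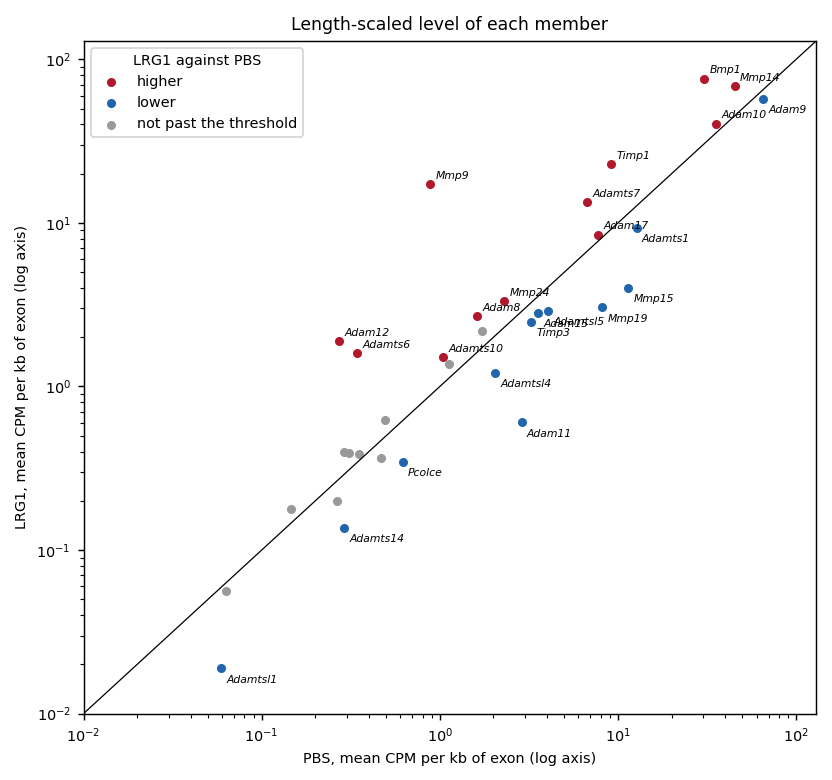
Mean CPM per kb of exon under PBS (horizontal) and LRG1 (vertical) for the 34 members, both axes logarithmic, with the line of equal level. Mmp9 lies farthest above the line (0.885 and 17.3), and Adam11 (2.88 and 0.606) farthest below it.

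The partners that activate or carry these enzymes were mixed. Of 19 genes listed, 16 were tested, 7 rose, 6 fell and 3 did not pass the threshold, beside 25.5% higher and 25.8% lower over all tested genes. Their median log2 fold change was 0.00033, beside 0.0093 over all tested genes. Furin, the convertase that removes the propeptide of membrane-type metalloproteases, Mmp11, ADAMs and Bmp1, went from 426 ± 18.1 to 686 ± 23.2 CPM, 1.61-fold higher. The related convertase gene Pcsk6 was 1.53-fold lower. The iRhom genes Rhbdf1 and Rhbdf2, whose products bring Adam17 to the cell surface, were 1.56-fold and 1.43-fold higher, and Frmd8, which stabilises that complex, was 1.18-fold higher. Of the tetraspanin genes that guide Adam10, Tspan14 was 1.33-fold higher, Tspan17 and Tspan33 were 1.25-fold and 1.44-fold lower, and Tspan5 and Tspan15 did not pass. The plasminogen activator genes went apart, with Plau 1.74-fold higher and Plat 3.03-fold lower.

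Of 9 other secreted inhibitors and enhancers, 4 were tested, 2 were higher, 1 was lower and 1 did not pass. The shares over all tested genes were 25.5% higher and 25.8% lower. Tfpi2, a Kunitz-type inhibitor of plasmin with reported activity against metalloproteases, rose from 21.6 ± 1.11 to 122 ± 4.37 CPM, 5.65-fold (log2 fold change 2.50, SE 0.055, adjusted p = 1.25e-20). Pzp, the alpha-2-macroglobulin type protease trap of mouse plasma, was lower, at 1256 ± 27.2 and 978 ± 16.9 CPM (log2 fold change -0.36). Cst3 did not pass (adjusted p = 0.377), and A2m had 2, 2 and 0 counts under LRG1 and 0 under PBS.

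Of 29 genes for membrane proteins shed by Adam10 or Adam17, 26 were tested, 11 rose, 10 fell and 5 did not pass the threshold, beside the same 25.5% higher and 25.8% lower over all tested genes. Their median log2 fold change was -0.021. Ligands of the EGF receptor differed among themselves. Hbegf was 1.60-fold higher (13.0 ± 0.478 and 20.8 ± 1.64 CPM), while Areg was 2.24-fold lower, Btc 1.35-fold lower and Tgfa 1.10-fold lower. The TNF receptor gene Tnfrsf1b was 1.85-fold higher and Tnfrsf1a 1.13-fold lower. The cadherin gene Cdh1 (E-cadherin) fell from 493 ± 41.5 to 224 ± 2.33 CPM, 2.20-fold, whereas Cdh2 (N-cadherin) was 1.07-fold higher. Notch2 was 1.40-fold higher and Notch1 1.39-fold lower. The receptor gene Met was 1.53-fold lower, and Cd44, Lrp1 and Ghr were 1.82-fold, 1.75-fold and 1.72-fold higher.

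**Figure D4:**
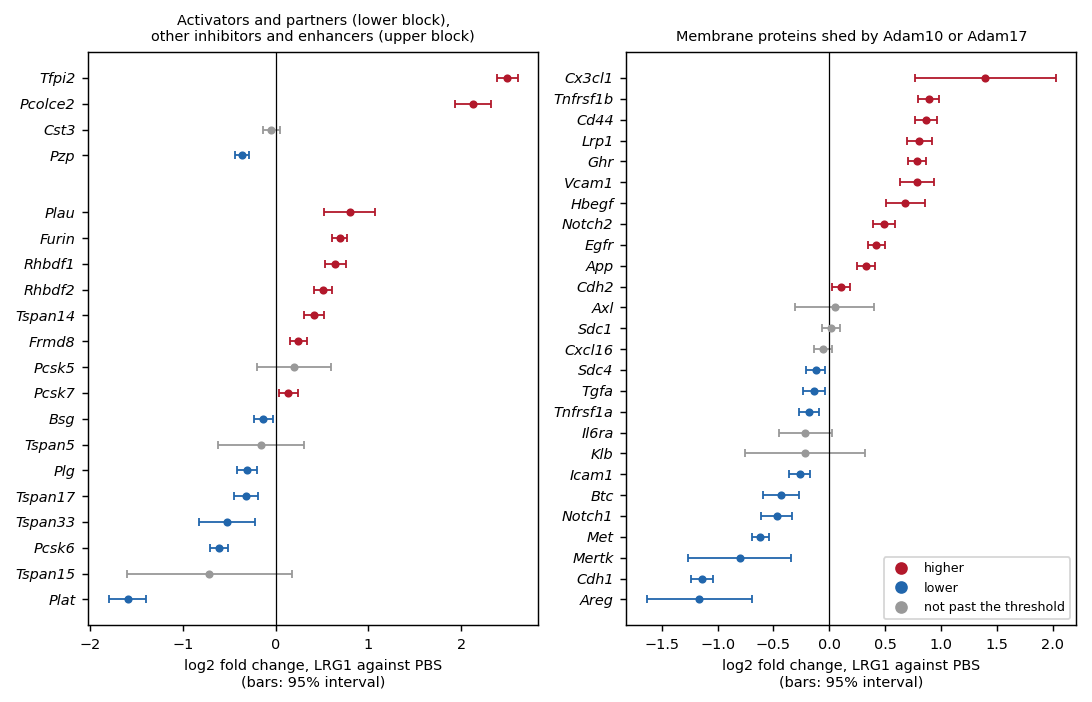
Log2 fold change with 95% interval for the tested genes of the partner, inhibitor and substrate lists, coloured by the edgeR call. Tfpi2 (2.50) and Pcolce2 (2.13) are the highest values and Plat (-1.60) the lowest, and the substrate list holds 11 higher and 10 lower genes.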

How the data were processed

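The 6 libraries, 3 PBS and 3 LRG1, were grouped by their titles. Each was made from roughly 500 ng of RNA with a kit that selects poly(A) RNA and marks the strand, and was read at 50 nt from 1 end, per the labels' protocols. The deposited values are raw read counts per gene symbol, made by the authors with bcl2fastq, TopHat2 and HTSeq on mouse build mm9, per the submitters' processing notes; their versions, the annotation and the strand setting were not given in the sources used. Without that setting, reads from overlapping genes of opposite strand cannot be told apart. Non-unique alignments were 58.2 to 59.3% of the row totals and 8.96 to 10.3% of uniquely aligned reads fell in no gene; the 5 HTSeq summary rows stayed out of all sizes and tests.

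Genes were kept by filterByExpr of edgeR 4.0.16 (R 4.3.3, minimum count 10), which left 12301 genes, and tested with TMM factors and the quasi-likelihood F test, with treatment as the single term and p-values adjusted by Benjamini-Hochberg across the tested genes. SE and 95% intervals come from the F statistic. No count was imputed and no library left out. Members and gene lists were chosen with earlier results of these data known, and 1 further gene of the list of shed proteins is not reported here and was left out of its counts; every member is named, as the rule for named genes asked. The Timp and Mmp values of close relatives may have lost reads that map to several places. The pipeline was tested on simulated counts. Far fewer genes were changed in them than were called here, so the test does not give the error rate of these calls. Exon lengths and overlaps came from GENCODE M21 (GRCm38) and promoters from RefSeq (GRCm38.p6); protein sequences were not used here. The alternatives were other scalings, filters, DESeq2 1.42.0, limma-voom (limma 3.58.1), a robust fit, a replicate block, each library left out, and other member rules. Same-numbered samples did not deviate together.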

Additional observations from a re-analysis of the deposited data

How the results depend on the processing

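Under the alternatives run on the whole fit, 11 to 13 members were higher and 11 to 13 lower, beside 12 and 12 as reported. With members required to have 20 counts in 3 libraries (29 genes), 12 were higher and 11 lower, and adding the letter-suffixed Adam1a left 12 and 12. Adamts14 met the 20-count rule through its PBS libraries alone (32, 29 and 25 counts, beside 17, 10 and 17 under LRG1). That rule fixed its direction, so its place among the 11 lower is no check. Of the 24 called members, 23 or 24 were shared with each alternative. Over all tested genes 2695 to 3391 were higher and 2824 to 3278 lower. Of 505 member values under alternatives, 490 kept direction and side of the threshold, 7 lost a call, all of Adam17, 5 gained one, of Mmp11, Mmp12 and Mmp13, and 3 changed sign in genes that were not called. The sign changes came with 1 library left out, where the log2 fold change of Adam32 ran from -0.16 (without LRG1 replicate 3) to 0.71, that of Adamts2 from -0.47 to 0.12 (without PBS replicate 1) and that of Reck from -0.030 (without PBS replicate 3) to 0.25. No member changed sign under another scaling, where the median of all tested genes ranged from 0.0058 to 0.025. The 1 CPM filter left out 5 members, which then had no value.

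The replicate numbers share no stated source. Deviations of same-numbered samples correlated at -0.12, -0.014 and -0.12, and 0 of 6 samples correlated best with their own number, so no pairing was assumed. With the replicate block 11 members were higher and 12 lower (2906 and 2984 of all genes), and the call of Adam17 was lost. Depth limits Adamts2, Adam32, Mmp3, Mmp13 and Adamtsl1, at 3 to 20 counts per library, and Adamts14 under LRG1, at 10 to 17.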
